A study of Homo sapiens with 6 samples.

Results

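Genes that make cholesterol and fatty acids, regulate that synthesis or govern cholesterol transport were compared between 2 forms of BCWM1, a human line established from Waldenström macroglobulinemia, a B cell lymphoma that secretes IgM. The 37 genes were listed by name from the pathway, with earlier results of these data known. They were 23 sterol genes (synthetic enzymes, regulators and carriers), 10 fatty acid genes and 4 genes here called efflux genes. The efflux genes are the exporters ABCA1 and ABCG1, the lysosomal transporter NPC1 and MYLIP, which lowers lipoprotein uptake. The platform annotation named 33 of them as the only gene of at least 1 probe set, with 85 probe sets in all. FDFT1, CYP51A1, FADS1 and ACSL3 had no such probe set and are not analysed here. MVD had only a probe set too dim to be tested (6.33 to 17.6 over the 6 samples), so 32 genes on 75 probe sets were tested, among 13644 genes tested in all.

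One group was parental BCWM1 cells (3 arrays) and the other BCWM1 cells that the sample titles call mutated (3 arrays). The series title ties the mutation to the chemokine receptor gene CXCR4 and writes it as C1013G, with no numbering stated. The sources used here do not say how the mutated cells were made, whether they are 1 clone, or whether they carry a vector that the parental cells lack. Separate cultures are not named for the 3 samples within a group, so the p-values cover only the spread among these arrays, which could be technical. Both groups are whole-cell total RNA of one line, in which fewer cells of a type and less RNA per cell cannot be told apart. Values are the deposited probe set intensities on a linear scale. Changes are differences of log2(intensity + 16) between group means, which understate the fold of dim genes.

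Array medians ran from 28.5 to 29.1 in parental and from 30.9 to 31.8 in mutated cells. All 7 B cell markers with a probe set lay above an intensity of 100 in every sample, with summed levels of 26898 to 27632 in parental and 27768 to 28597 in mutated cells. That sum hides moves of single B cell markers on their brightest probe sets. CR2 (605 to 1241), CD79B (1032 to 1610) and CD79A (2219 to 2607) rose and CD22 (2006 to 1515) fell, while MS4A1, PAX5 and BLNK did not pass. The 6 plasma cell markers also lay above 100 in every sample, but their summed level was 8832 to 9104 in parental and 5612 to 5935 in mutated cells. The markers did not move as one: TNFRSF17, at a mean of 3417 in parental and 911 in mutated cells, made up most of that drop, SDC1, CD38 and PRDM1 fell too, XBP1 did not pass, and MZB1 rose (937 to 1316). The part of these shifts in the results below was not tested. Of 22 markers of T cells, macrophages, adipocytes, hepatocytes and fibroblasts with a probe set, only COL1A1 exceeded 100 in every sample. It did so on its brightest probe set alone, the next one having means of 62.7 in parental and 57.7 in mutated cells. Below the array median in every sample were 3 of 5 T cell, 4 of 4 macrophage and 4 of 5 adipocyte markers. The same held for 3 of 4 hepatocyte and 2 of 4 fibroblast markers. CD3E, CD14, ADIPOQ and ALB were among those below, and CIDEC, at means of 97.2 in parental and 65.8 in mutated cells, was not.

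Cholesterol is built from acetyl-CoA through mevalonate and squalene, and fatty acids from acetyl-CoA through malonyl-CoA. Both routes are switched on by the membrane-bound transcription factors SREBP-1 and SREBP-2, which the escort protein SCAP carries to the Golgi when sterols are low and which INSIG proteins hold back in the endoplasmic reticulum when sterols are high. Oxysterols act in the other direction through LXR nuclear receptors, which induce the cholesterol exporters ABCA1 and ABCG1, the ubiquitin ligase MYLIP and the SREBP-1 gene itself. Lymphocytes raise sterol and lipid synthesis when they grow and divide.

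Of 20 sterol genes tested, 10 fell, 5 rose and 5 did not pass at the threshold of 0.05 on the adjusted p (limma, with adjustment by Benjamini and Hochberg across all probe sets tested). Among all genes tested, 18.9% fell and 30.1% rose. The median log2 change was −0.14 over the sterol genes and 0.038 over all genes tested. Of 8 fatty acid genes 2 fell, 2 rose and 4 did not pass, with SCD higher and FASN lower, and a median of −0.014. That median has no settled sign, being −0.037 without parental replicate 1, 0.017 without parental replicate 3 and 0.0021 without mutated replicate 3. The 4 efflux genes all passed, 2 higher and 2 lower, with ABCG1 and MYLIP moving by nearly the same factor in opposite directions on their brightest probe sets. Their other tested probe sets ran from −1.47 to −0.10 for ABCG1 and from 0.26 to 1.41 for MYLIP. The groups did not overlap in 17 of 20 sterol, 4 of 8 fatty acid and 4 of 4 efflux genes, against 61.2% of all genes tested. Changes were small: 17 of the 23 genes called changed by less than 1.5-fold on the log2 scale used. None of the 23 representative probe sets reached 2-fold. Small changes were not particular to the members. The median absolute log2 change was 0.27 over the 32 members tested and 0.21 over all genes tested.

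**Figure D1:**
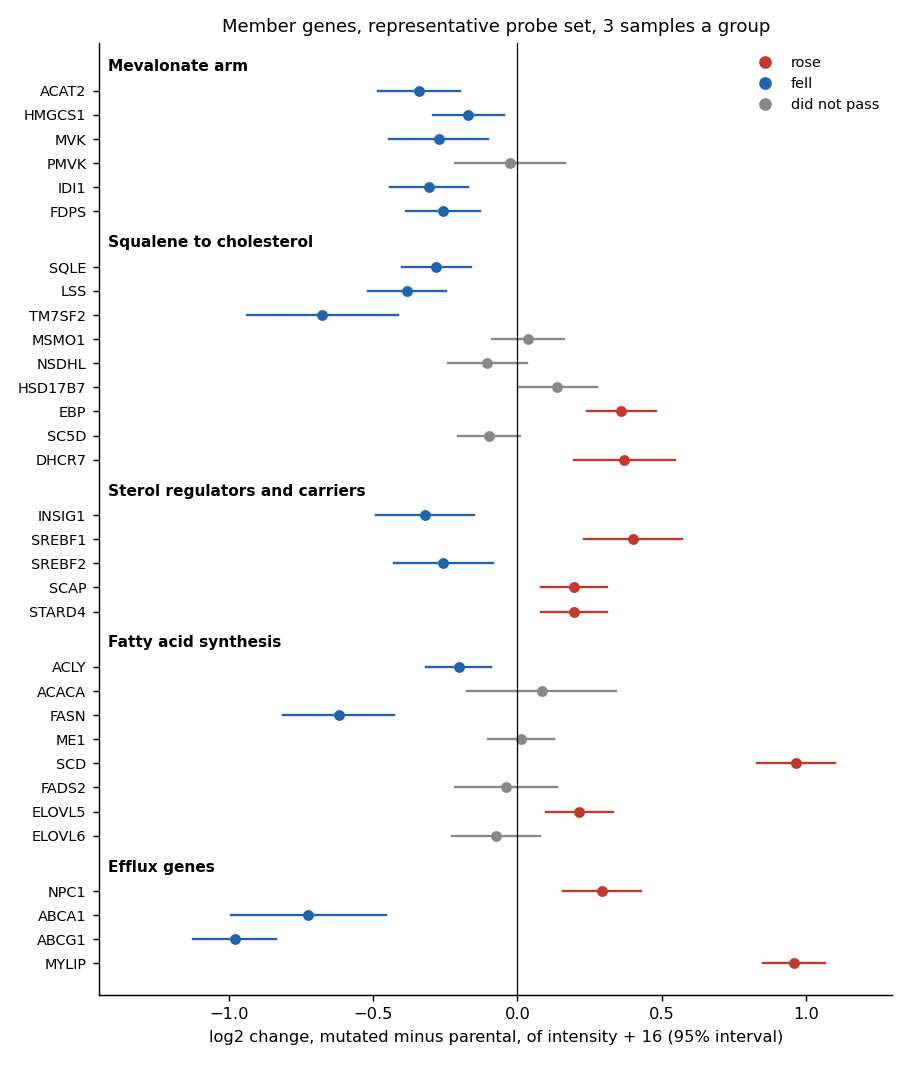
Log2 change (mutated minus parental, of intensity + 16) of the 32 member genes tested, each on its brightest probe set, with its 95% interval (limma) and 3 samples a group; red genes rose, blue genes fell and grey genes did not pass. The largest rises are SCD (0.97) and MYLIP (0.96) and the largest fall is ABCG1 (−0.98), while 5 of the 6 genes of the mevalonate arm lie between −0.34 and −0.17.

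Promoter windows of RefSeq (build GRCh38.p14, 250 bases before to 50 after a transcription start) were searched on both strands for 3 motifs, since SREBPs act together with the factors NF-Y and Sp1. The motifs were an SRE-like element (TCACNCCAC, a sterol regulatory element), the NF-Y box (CCAAT) and the Sp1 box (GGGCGG), none of which contains another. Of the members, 32 had a window, 41 windows in all. The SRE-like letters occurred in 1 of the 41 member windows (2.44%), that of SREBF2, and in 1.13% of all 35093 windows. The NF-Y box occurred in 65.9% of member windows and 34.6% of all windows, and in 72.0% of sterol gene windows. The Sp1 box occurred in 87.8% of member windows, 44.9% of all windows and 62.2% of windows of the genes tested, where the NF-Y box stood at 34.8%. These matches are descriptions, and no match says only that the letters are not in the window. Counted by gene, the NF-Y box occurred in 9 of 10 members that fell and had a window, in 6 of 9 that rose and in 6 of 9 that did not pass, against 42.9% of the genes tested. ACAT2, SQLE, FASN and ABCG1, which fell, had no window here.

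The 250 bases before the start are shown for SREBF2 (chr22:41832855-41833104, plus strand), which holds the SRE-like element 133 bases before the start, and, chosen after the values were seen, for the called members with a single window and the smallest adjusted p of their class in a direction: LSS (chr21:46228775-46229024, minus strand) and EBP (chrX:48521558-48521807, plus strand) for sterol genes, SCD (chr10:100346983-100347232, plus strand) for fatty acid genes, and MYLIP (chr6:16128836-16129085, plus strand) and ABCA1 (chr9:104928156-104928405, minus strand) for efflux genes. Each is written 5′ to 3′ on the gene's strand, and capitals mark a match to any of the 3 motifs on either strand.
SREBF2: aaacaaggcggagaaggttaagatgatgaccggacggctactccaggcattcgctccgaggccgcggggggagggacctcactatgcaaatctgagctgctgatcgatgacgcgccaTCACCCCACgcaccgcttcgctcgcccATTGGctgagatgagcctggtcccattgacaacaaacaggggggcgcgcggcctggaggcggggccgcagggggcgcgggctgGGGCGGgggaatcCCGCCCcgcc
LSS: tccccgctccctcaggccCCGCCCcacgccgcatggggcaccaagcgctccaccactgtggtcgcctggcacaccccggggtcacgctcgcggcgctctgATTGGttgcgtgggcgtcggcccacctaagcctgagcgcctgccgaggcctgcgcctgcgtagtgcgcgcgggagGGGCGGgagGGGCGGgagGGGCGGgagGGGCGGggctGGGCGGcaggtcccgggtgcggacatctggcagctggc
EBP: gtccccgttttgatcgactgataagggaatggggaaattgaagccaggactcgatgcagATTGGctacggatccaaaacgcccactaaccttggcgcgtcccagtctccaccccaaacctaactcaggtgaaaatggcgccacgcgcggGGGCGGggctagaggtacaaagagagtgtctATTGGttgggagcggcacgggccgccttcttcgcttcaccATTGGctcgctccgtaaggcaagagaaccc
SCD: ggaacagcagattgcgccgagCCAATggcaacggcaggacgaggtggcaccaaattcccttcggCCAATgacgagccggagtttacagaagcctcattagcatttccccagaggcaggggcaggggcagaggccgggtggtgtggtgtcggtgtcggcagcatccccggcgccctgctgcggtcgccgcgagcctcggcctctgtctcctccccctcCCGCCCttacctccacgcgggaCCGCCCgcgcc
MYLIP: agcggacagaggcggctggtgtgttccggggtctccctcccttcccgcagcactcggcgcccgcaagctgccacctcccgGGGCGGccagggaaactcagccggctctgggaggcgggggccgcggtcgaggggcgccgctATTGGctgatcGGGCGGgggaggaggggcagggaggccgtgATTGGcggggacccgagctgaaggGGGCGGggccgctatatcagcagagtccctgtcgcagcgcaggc
ABCA1: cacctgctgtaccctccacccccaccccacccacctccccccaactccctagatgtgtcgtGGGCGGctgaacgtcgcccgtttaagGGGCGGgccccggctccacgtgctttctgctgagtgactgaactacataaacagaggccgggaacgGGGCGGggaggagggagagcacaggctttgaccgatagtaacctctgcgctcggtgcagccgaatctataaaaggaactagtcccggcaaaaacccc

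The SREBF2 stretch holds 1 NF-Y and 2 Sp1 boxes beside its SRE-like element. LSS, which fell, holds 1 NF-Y box and 6 Sp1 boxes, most of them in a tandem row. EBP, which rose, holds 3 NF-Y boxes and 1 Sp1 box, SCD 2 of each, and MYLIP 2 NF-Y and 3 Sp1 boxes. ABCA1 holds 3 Sp1 boxes and no NF-Y box. Genes that rose and genes that fell thus both carry these letters.

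In the mevalonate arm, 5 of 6 genes tested fell and none rose. ACAT2, which joins 2 acetyl-CoA to start the route, read 974, 1017 and 971 in the parental samples and 807, 798 and 724 in the mutated ones. Its groups did not overlap, and the log2 change was −0.34 (SE 0.060, adjusted p = 0.0038). FDPS, which makes farnesyl pyrophosphate, the branch point to sterols and prenyl groups, read 2618, 2712 and 2638 in parental and 2223, 2115 and 2323 in mutated cells. The log2 change of FDPS was −0.26 (SE 0.054, adjusted p = 0.0080). In both genes every mutated sample lay below every parental one. HMGCS1, which makes HMG-CoA, fell from 1489 ± 59.4 to 1321 ± 25.5 (SD, n = 3), or −0.17 on the log2 scale (adjusted p = 0.033). That call was weak: the adjusted p was 0.086 without parental replicate 2, 0.099 without parental replicate 3, and 0.082, 0.064 and 0.075 without mutated replicates 1, 2 and 3, and over all alternatives it ran from 0.0031 to 0.15. The other HMGCS1 probe set gave −0.077 and did not pass.

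MVK, mevalonate kinase, fell from 778 ± 39.3 to 642 ± 46.6 (SD, n = 3), or −0.27 on the log2 scale (adjusted p = 0.020). Its dim probe sets gave −0.089 and −0.99, and neither passed. The MVK call was lost without parental replicate 1 (adjusted p = 0.062), parental replicate 3 (0.064) or mutated replicate 2 (0.052), over a range of 0.0012 to 0.064 for all alternatives. PMVK, the next kinase, read 1132, 1126 and 1082 in parental and 1202, 1109 and 982 in mutated cells. PMVK did not pass, with a log2 change of −0.025 and a 95% interval from −0.22 to 0.17. IDI1, which isomerizes isopentenyl pyrophosphate, depended on the probe set. Its brightest one fell from 1551 ± 19.9 to 1253 ± 69.7 (SD, n = 3; log2 change −0.31, adjusted p = 0.0049), and a second bright one fell by 0.36. A dim IDI1 probe set rose from 111 ± 2.08 to 139 ± 4.48 (log2 change 0.29, adjusted p = 0.0032), and another gave 0.037. The 3 IDI1 probe sets that changed carry the suffix _x_at, which marks probes that may bind other transcripts, and the remaining one alone turned the sign to 0.037 (adjusted p = 0.81). As the mean of its probe sets IDI1 gave −0.085 (adjusted p = 0.20), and its adjusted p over all alternatives ran from 4.8e-05 to 0.81.

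From squalene to cholesterol, 3 of 9 genes tested fell, 2 rose and 4 did not pass. SQLE, squalene epoxidase, a rate-limiting oxygenase, read 1098, 1045 and 1098 in parental and 911, 884 and 864 in mutated cells. SQLE changed by −0.28 on the log2 scale (SE 0.050, adjusted p = 0.0040) and fell on 2 further probe sets (−0.38 and −0.53), while a dim one rose by 0.36. LSS, lanosterol synthase, which closes the sterol ring system, read 749.9, 739.5 and 767 in parental and 593, 591 and 538 in mutated cells. The log2 change of LSS was −0.38 (SE 0.057, adjusted p = 0.0019). Neither dim LSS probe set passed (0.24 and −0.16), and as the mean of its probe sets LSS gave −0.099 (adjusted p = 0.14, the highest of its alternatives, the lowest being 1.7e-05). TM7SF2, a sterol C14 reductase, fell from a dim 109.5 ± 9.54 to 62.9 ± 10.8 (SD, n = 3), 1.74-fold in intensity (log2 change −0.68, adjusted p = 0.0028). It was the sterol gene with the largest change.

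The 2 sterol genes of late steps that rose act near the end of the route. EBP, the isomerase that shifts the double bond of the sterol ring, read 515, 492 and 491 in parental and 656, 623 and 658 in mutated cells. EBP rose by 0.36 on the log2 scale (SE 0.050, adjusted p = 0.0015), and a dim EBP probe set rose too (0.61), while another gave 0.14 and did not pass. The dimmest EBP probe set lay below the array medians in both groups (19.8 and 24.9). DHCR7, the reductase that makes cholesterol from 7-dehydrocholesterol, read 202, 173 and 191 in parental and 264, 248 and 234 in mutated cells. DHCR7 rose by 0.37 (SE 0.073, adjusted p = 0.0064), and its other probe set by 0.32. In both genes the 3 mutated samples lay above the 3 parental ones.

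Another 4 genes of this stretch did not pass. MSMO1, a C4-methylsterol oxidase, gave 0.037 (95% interval −0.089 to 0.16) and NSDHL, which works with it, −0.10 (−0.24 to 0.032). HSD17B7, the ketoreductase of the same complex, gave 0.14 (0.0011 to 0.28, adjusted p = 0.090) with groups that did not overlap. Its only probe set carries the suffix _x_at, so it may bind other transcripts. SC5D, a sterol desaturase, gave −0.099 (−0.21 to 0.0088), also without overlap. NSDHL and SC5D fell with quantile normalization (−0.19 and −0.14, adjusted p = 0.036 and 0.034) and with median centring (−0.18 for both, adjusted p = 0.042 and 0.021), over ranges of 0.036 to 0.43 and 0.021 to 0.28. HSD17B7 rose with the trend and robust options of eBayes (adjusted p = 0.026), over a range of 0.026 to 0.44.

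All 5 regulators and carriers passed, 2 lower and 3 higher. INSIG1, the sterol-sensitive retention factor and itself an SREBP target, read 1635, 1549 and 1562 in parental and 1268, 1161 and 1373 in mutated cells. INSIG1 changed by −0.32 (SE 0.071, adjusted p = 0.011), by −0.50 on a second probe set, and by −0.076 on the other one, which did not pass. SREBF2, the gene of SREBP-2, whose promoter above holds the SRE-like element, read 245, 226 and 204 in parental and 189, 186 and 181 in mutated cells. SREBF2 changed by −0.26 (SE 0.071, adjusted p = 0.025), by −0.38 on a second probe set that passed and by −0.11 on another that did not. The brightest probe set lost its call without parental replicate 1 (adjusted p = 0.065) or 2 (0.069). It also did so without mutated replicate 1, 2 or 3 (0.053, 0.063 and 0.059), and with no filter on dim probe sets (0.051). With the _s_at and _x_at types left out, the probe set at −0.11 represented SREBF2 (adjusted p = 0.32). Over all alternatives the adjusted p of the gene ran from 0.0023 to 0.32.

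SREBF1, the gene of SREBP-1 and an LXR target, moved the other way from SREBF2. It read 293, 287 and 323 in parental and 412, 423 and 374 in mutated cells, and every mutated sample was above every parental one. SREBF1 rose by 0.40 (SE 0.071, adjusted p = 0.0041), and passed in all 17 alternatives (adjusted p from 1.2e-04 to 0.019). SCAP, the escort of SREBPs, rose from 352 ± 1.15 to 406 ± 13.9 (SD, n = 3), or 0.20 on the log2 scale (adjusted p = 0.015). SCAP did not pass with quantile normalization (0.12, adjusted p = 0.081), median centring (0.12, 0.12) or without mutated replicate 2 (0.17, 0.053), and its adjusted p ran from 0.0054 to 0.12. STARD4, a cytosolic sterol carrier, rose from 2432 ± 71.7 to 2788 ± 38.3 (SD, n = 3; log2 change 0.20, adjusted p = 0.015). STARD4 did not pass with median centring (0.12, adjusted p = 0.11) or without parental replicate 1 (0.051) or mutated replicate 1 (0.0501), over a range of 3.4e-04 to 0.11.

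**Figure D2:**
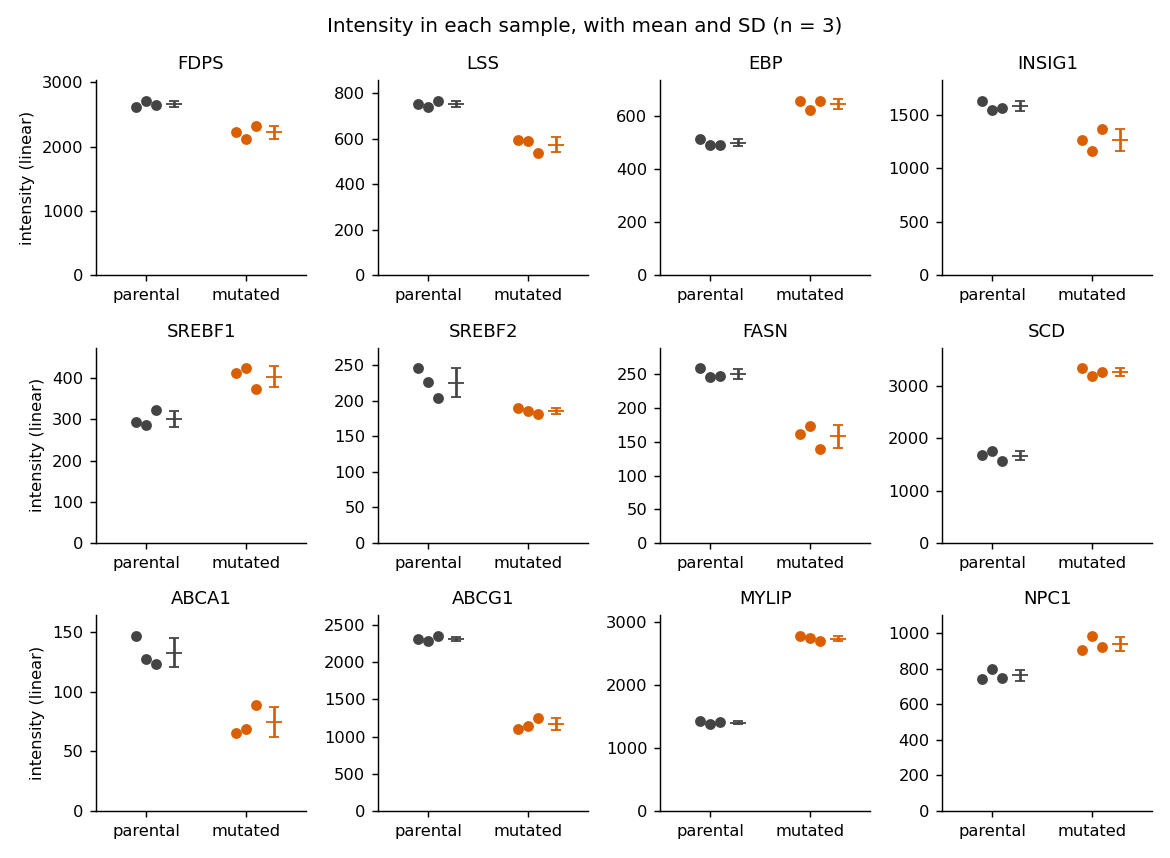
Linear probe set intensity of 12 member genes in each of the 6 samples (dots), with mean and SD beside them (n = 3); every axis starts at 0. Mutated samples lie wholly below parental ones for FDPS, LSS, INSIG1, SREBF2, FASN, ABCA1 and ABCG1, and wholly above for EBP, SREBF1, SCD, MYLIP and NPC1.

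Among fatty acid genes, the desaturase SCD showed the largest change. SCD, which makes oleate and palmitoleate, read 1676, 1751 and 1577 in parental and 3338, 3197 and 3279 in mutated cells. No mutated value came near a parental one, and mean intensity was 1.96-fold higher (log2 change 0.97, SE 0.056, adjusted p = 3.4e-05). A dim SCD probe set rose too (0.89), and 2 dimmer ones, with parental means of 28.1 and 19.8 below the array medians, read 62.6 and 39.1 in mutated cells. FASN, the synthase that assembles palmitate, read 259, 246 and 248 in parental and 161, 174 and 139 in mutated cells. FASN mean intensity was 1.59-fold lower (log2 change −0.62, SE 0.081, adjusted p = 0.0011). A dim FASN probe set gave 0.0027 (adjusted p = 0.99). As the mean of both, FASN gave −0.31 and still passed. The synthase and the desaturase that acts on its product thus changed in opposite directions.

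ACLY, which makes cytosolic acetyl-CoA from citrate for both routes, read 2246, 2202 and 2229 in parental and 1968, 1958 and 1867 in mutated cells. ACLY fell on its 3 probe sets (−0.20, −0.45 and −0.51), the brightest with an adjusted p of 0.012. ELOVL5, an elongase of polyunsaturated fatty acids, rose from 4921 ± 102 to 5715 ± 164 (SD, n = 3; log2 change 0.21, adjusted p = 0.011). One dim ELOVL5 probe set rose by 0.74, and 2 others did not pass (−0.077 and −0.13). With median centring the ELOVL5 change was 0.14 and did not pass (adjusted p = 0.081, over a range of 8.6e-05 to 0.081).

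Of the 4 fatty acid genes that did not pass, ACACA, the carboxylase that makes malonyl-CoA, gave 0.084 (95% interval −0.17 to 0.34), and −0.14 on its other probe set. FADS2, a desaturase of polyunsaturated fatty acids, gave −0.039 (−0.21 to 0.14), but −0.24 with quantile normalization, where it passed (adjusted p = 0.037, over a range of 0.037 to 0.80). ELOVL6, the elongase of palmitate, gave −0.074 (−0.23 to 0.078), although a dimmer probe set fell by 0.35 (adjusted p = 0.011). ME1, malic enzyme, a source of NADPH, gave 0.011 (−0.10 to 0.13). A second ME1 probe set rose from 297 ± 26.2 to 357 ± 8.73 (log2 change 0.25, adjusted p = 0.024), so ME1 passed when the _s_at and _x_at types were left out (adjusted p = 0.027) or when its probe sets were averaged (0.13, adjusted p = 0.049), over a range of 0.027 to above 0.99.

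The efflux genes split. ABCG1, which exports cholesterol to lipoproteins, read 2308, 2291 and 2349 in parental and 1107, 1144 and 1253 in mutated cells, 1.98-fold lower in mean intensity. The log2 change of ABCG1 was −0.98 (SE 0.060, adjusted p = 4.2e-05). It was −1.47 on a second probe set and −0.38 on a dim one, and −0.10 on another that did not pass. With the _s_at and _x_at types left out, the dim one at −0.38 represented ABCG1 and still passed. ABCA1, which loads cholesterol onto apolipoproteins, read a dim 147, 128 and 124 in parental and 65.6, 68.5 and 88.95 in mutated cells. ABCA1 changed by −0.72 (SE 0.11, adjusted p = 0.0023). Its other 3 probe sets were too dim to be tested, and one of these read 8.82, 9.73 and 12.0 in parental against 21.1, 20.9 and 28.9 in mutated cells, so the ABCA1 fall rests on 1 probe set.

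MYLIP, also called IDOL, a ubiquitin ligase that removes lipoprotein receptors and that LXR induces along with ABCA1 and ABCG1, went the opposite way. It read 1422, 1373 and 1402 in parental and 2768, 2733 and 2697 in mutated cells, 1.95-fold higher in mean intensity. The log2 change of MYLIP was 0.96 (SE 0.045, adjusted p = 1.3e-05). MYLIP rose on 4 further probe sets (0.95 to 1.41), and the remaining dim one gave 0.26 and did not pass. NPC1, which moves cholesterol out of lysosomes, read 742, 798 and 745 in parental and 906, 982 and 923 in mutated cells. NPC1 rose by 0.29 (SE 0.057, adjusted p = 0.0060). Of its other tested probe sets, both dim, 1 rose (0.27) and 1 did not pass (0.15). SREBF1, which LXR also induces, rose as MYLIP did.

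Several members were read by more than 1 probe set, which gives a check within these arrays. Of the 75 member probe sets tested, 24 rose and 24 fell, against 30.9% and 16.6% of all probe sets tested. Of 16 called genes with another tested probe set, 12 had one with the same call and 2 (IDI1 and SQLE) also had one called the opposite way. HMGCS1, MVK, LSS and FASN had no other probe set that passed. The remaining 7 called genes, ACAT2, FDPS, TM7SF2, SREBF1, SCAP, STARD4 and ABCA1, had 1 tested probe set each.

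**Figure D3:**
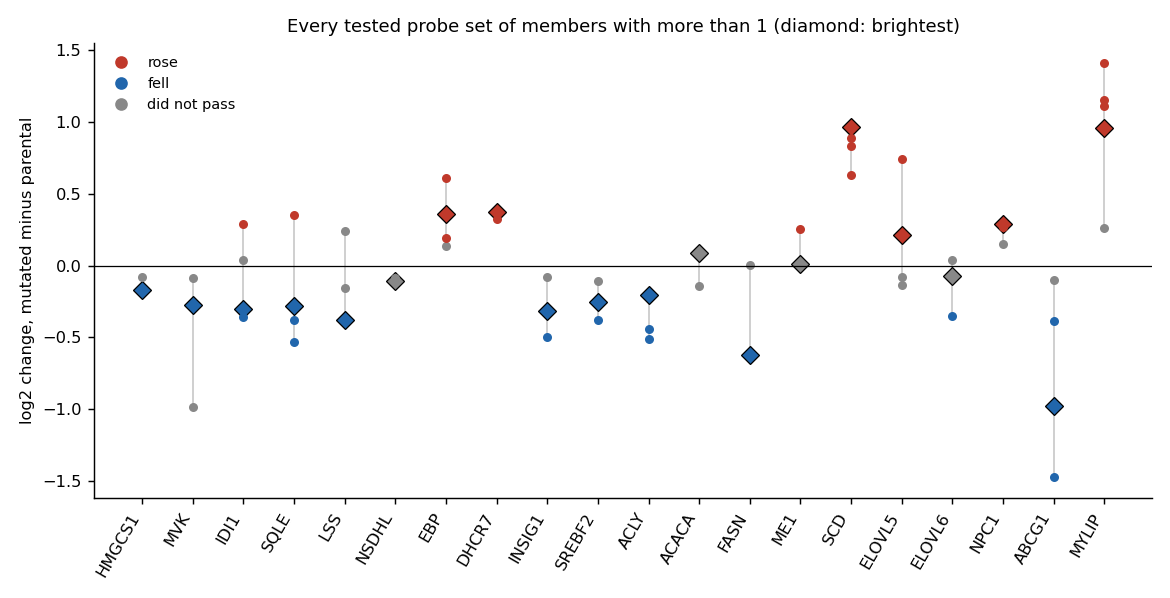
Log2 change (mutated minus parental) of every tested probe set of the 20 members with more than 1; diamonds are the brightest probe set, which represents the gene, and colours give the call. SCD, DHCR7 and ACLY changed the same way on all their probe sets, while IDI1 and SQLE have a probe set called in each direction.

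The scaling of the arrays changed the balance of rises and falls. Of all gene calls, 61.5% were higher as deposited, 49.6% with quantile normalization and 46.1% with median centring, and the median log2 change of all genes tested was 0.038, −0.026 and −0.041. Sterol genes fell in 10 and rose in 5 of 20 as deposited, fell in 12 and rose in 4 with quantile normalization, and fell in 12 and rose in 3 with median centring. With these 2 scalings 25.5% and 26.1% of all genes fell, and 25.1% and 22.4% rose. Fatty acid genes fell in 3 and rose in 2 with quantile normalization, and fell in 2 and rose in 1 with median centring. The efflux genes kept 2 rises and 2 falls under all 3 scalings.

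**Figure D4:**
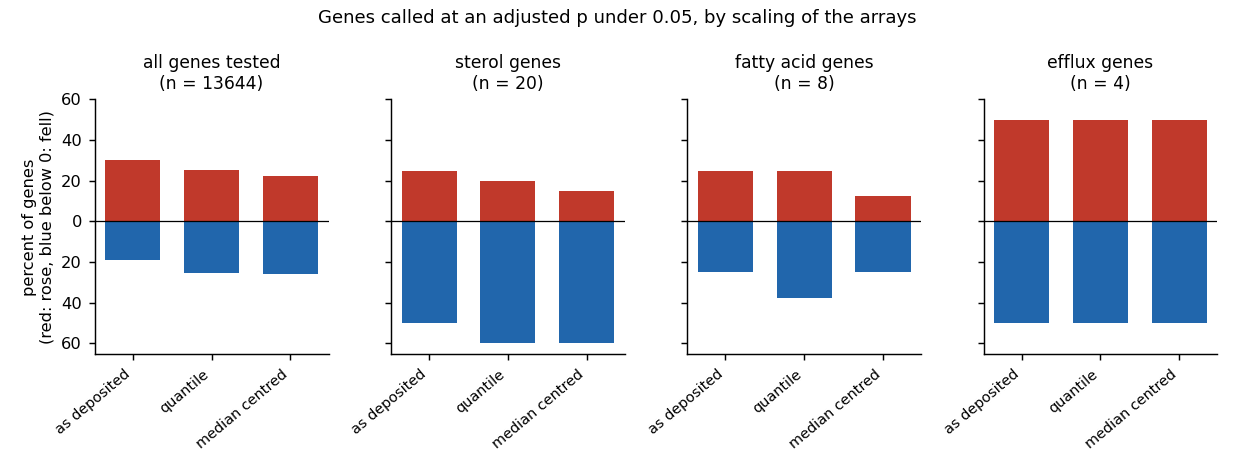
Percent of genes that rose (red, above 0) and fell (blue, below 0) at an adjusted p under 0.05 (limma), for all 13644 genes tested and for the 20 sterol, 8 fatty acid and 4 efflux genes, with the arrays as deposited, quantile normalized and median centred. Falls outnumber rises among sterol genes in each scaling, and among all genes rises and falls change places.

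Other genes of these pathways, listed for this comparison with earlier results of these data known, were measured on the same arrays. Their counts stand against the 30.1% of all genes tested that rose and the 18.9% that fell. Of 8 tested genes of SREBP processing and degradation, 2 rose, 1 fell and 5 did not pass, shares near those of all genes. INSIG2, the second INSIG retention factor, read 668, 704 and 684 in parental and 1482, 1374 and 1382 in mutated cells, 2.06-fold higher (log2 change 1.03, adjusted p = 2.1e-05), whereas INSIG1 was lower. ERLIN1, an endoplasmic reticulum protein that restrains SREBP activation, rose by 0.57 (adjusted p = 3.6e-04). TRIB1, a pseudokinase linked to blood lipid levels, was 1078 ± 26.2 in parental and 538 ± 18.8 in mutated cells (SD, n = 3; log2 change −0.98, adjusted p = 2.0e-05).

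Genes of the non-sterol branch, which uses farnesyl pyrophosphate for prenyl groups and coenzyme Q, numbered 10 tested: 6 rose, 2 fell and 2 did not pass. COQ2, the prenyltransferase of coenzyme Q synthesis, read 373, 391.9 and 388 in parental and 1151, 1179 and 1309 in mutated cells, 3.16-fold higher (log2 change 1.62, adjusted p = 6.1e-06). Its second probe set lay below the array medians in parental cells, at 12.0, and bears no weight here. FNTB (0.90) and FNTA (0.38), the subunits of protein farnesyltransferase, rose as well, and a second FNTA probe set did so too (0.35), while a dim one gave −0.10 and did not pass. PDSS1 (−0.26) and DHDDS (−0.18), which build longer prenyl chains, fell on their brightest probe sets, but as means of their probe sets gave 0.023 (adjusted p = 0.75) and 0.11 (0.11). The value of PDSS1 was 0.31 (adjusted p = 0.031), on a probe set with a parental mean of 24.9, below the array medians, with the _s_at and _x_at types left out, over a range of 3.5e-04 to 0.75. The dimmer DHDDS probe set rose by 0.41 (adjusted p = 0.0022), and the brightest did not pass without parental replicate 1, 2 or 3 (adjusted p = 0.074, 0.11 and 0.077) or mutated replicate 1 or 3 (0.11 and 0.075), over a range of 0.010 to 0.11.

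Of 13 genes of fatty acid supply and elongation, 5 rose, 3 fell and 5 did not pass. FADS3, a desaturase related to FADS2, read 66.0, 66.8 and 68.6 in parental and 244, 240.0 and 205 in mutated cells. Its mean intensity was 3.42-fold higher (log2 change 1.56, adjusted p = 1.3e-05). The second FADS3 probe set rose by 0.56 but was dim, with a parental mean of 29.0, about the array medians. TECR (0.32) and HACD3 (0.21), enzymes of very long chain elongation, rose too. TECR did not pass on its dim second probe set (0.13, adjusted p = 0.41, from 2.2e-04 to 0.41 over its alternatives), and HACD3 did not with median centring (0.13, adjusted p = 0.078, from 3.2e-04 to 0.078 over its alternatives). ACSL4, which activates arachidonate, read 2642, 2787 and 2645 in parental and 1389, 1388 and 1515 in mutated cells, with falls on 3 probe sets (−0.90, −0.49 and −0.73). ACSL1, another acyl-CoA synthetase, gave −0.15 (adjusted p = 0.046) and lost that call in each fit with 1 sample removed (0.058 to 0.125), from 0.0031 to 0.125 over all alternatives. Its dimmer probe set fell by 0.33 (adjusted p = 0.0067). ACACB, the mitochondrial relative of ACACA, read 71.2, 68.8 and 64.1 in parental and 45.7, 15.7 and 42.3 in mutated cells, a dim and uneven group. ACACB gave −0.79 (adjusted p = 0.036), but −0.49 without mutated replicate 2 (adjusted p = 0.0034), and did not pass without parental replicate 1, 2 or 3 (0.094, 0.094 and 0.077), over a range of 0.0034 to 0.094.

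Of 15 genes of LXR and cholesterol transport, 7 rose, 1 fell and 7 did not pass. GRAMD1B, which carries cholesterol from the plasma membrane to the endoplasmic reticulum, read 102, 117 and 113 in parental and 350, 346 and 318 in mutated cells, 3.05-fold higher (log2 change 1.48, adjusted p = 1.1e-05). LIPA, the lysosomal lipase that frees cholesterol from its esters, rose from 786 ± 14.4 to 1265 ± 4.06 (SD, n = 3; log2 change 0.67). NPC2, which hands that cholesterol to NPC1, rose from 2465 ± 231 to 3509 ± 141 (SD, n = 3; log2 change 0.51), so LIPA, NPC2 and NPC1 were all higher. STARD3 (−0.26, adjusted p = 0.035), a late endosomal sterol carrier, was the gene that fell, and did not pass without parental replicate 1, 2 or 3 (0.10, 0.062 and 0.056) or mutated replicate 1 or 2 (0.088 and 0.062), over a range of 0.0076 to 0.10. NR1H3, the gene of LXRα, named here after its values were seen, was dim: 16.4, 20.1 and 19.5 in parental and 35.1, 48.5 and 30.6 in mutated cells. The parental values lay below every array median, so no fold is given, although NR1H3 is among the 7 genes counted as risen.

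**Figure D5:**
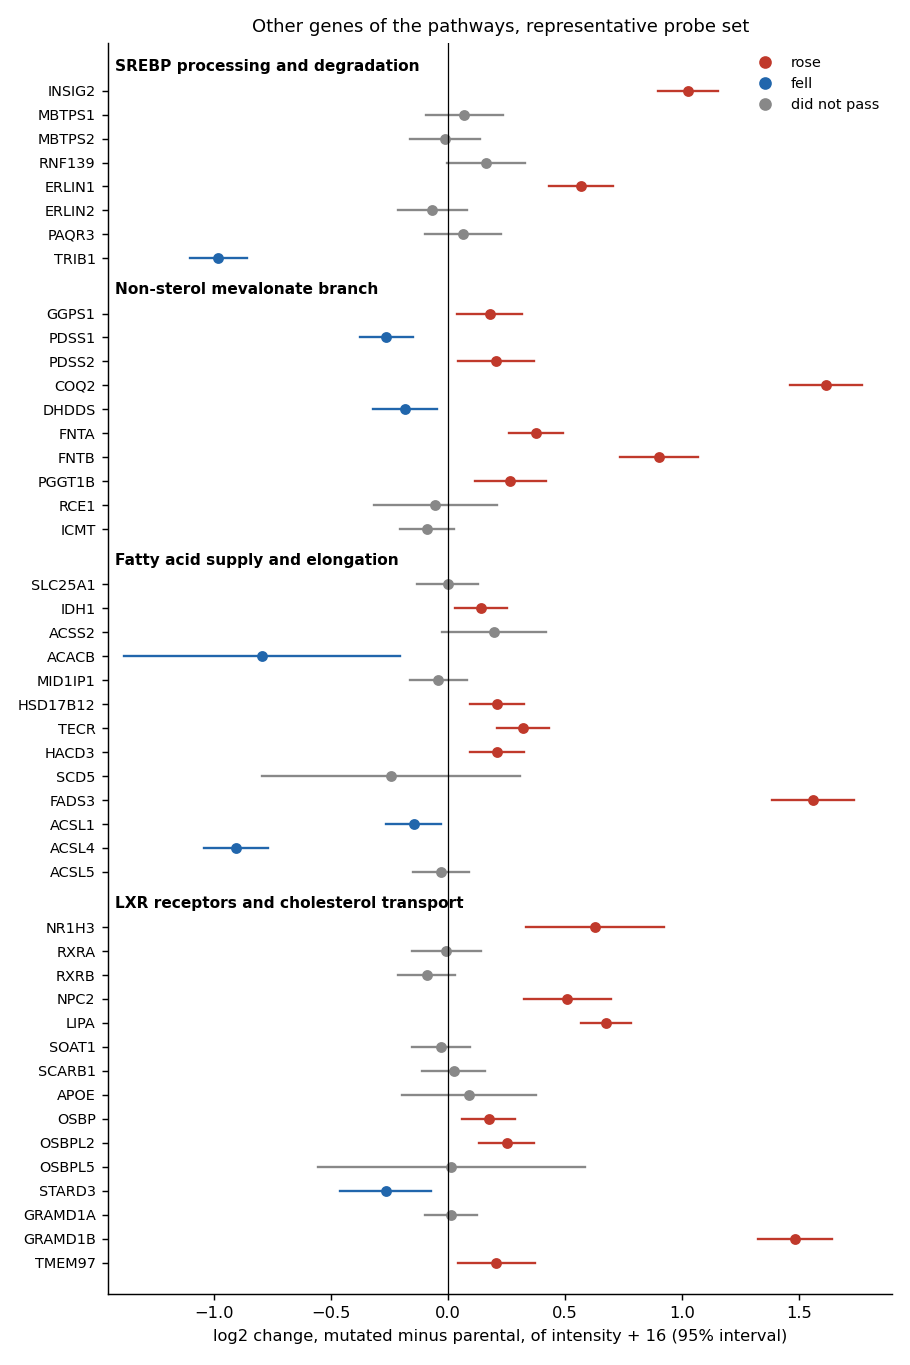
Log2 change (mutated minus parental, of intensity + 16) with its 95% interval (limma, 3 samples a group) for 46 other genes of the same pathways, in 4 lists; red genes rose, blue genes fell and grey genes did not pass. COQ2 (1.62), FADS3 (1.56), GRAMD1B (1.48) and INSIG2 (1.03) rose most, and TRIB1 (−0.98) and ACSL4 (−0.90) fell most.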

How the data were processed

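Total RNA of 6 BCWM1 samples, 3 parental and 3 mutated by their titles, was labelled with biotin, per the labels' protocols, and read on an array whose probe sets have Affymetrix names. The authors deposited a linear intensity for each of 54613 probe sets. For the summary method, background correction and normalization, nothing is stated in the sources used here. The number of arrays limits the precision.

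Intensities were transformed as log2(intensity + 16). The dimmest 40% of probe sets by their mean in the 6 samples were dropped. The other 32768 went into limma 3.58.1 in R 4.3.3 (lmFit, eBayes; two-sided; group as the only term), with Benjamini-Hochberg adjustment across that whole table and calls at 0.05. Each gene's value is that of its brightest tested probe set among those with 1 symbol. The 85 member probe sets matched RefSeq (GRCh38.p14) by Entrez ID with 0 symbols changed. Every member and, of 4 further lists, up to 3 genes in each direction with the smallest adjusted p are named. The members and lists were chosen with earlier results of these data known. The procedure was tested on simulated data. Figures were drawn with matplotlib 3.10.9.

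Alternatives were quantile normalization, median centring, no filter and a filter of 60%, pseudocounts of 1 and 64, trend and robust options, array weights, a replicate block, other probe set choices and each sample left out.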

Additional observations from a re-analysis of the deposited data

How the results depend on the processing

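Of the 23 members called, 15 kept call and direction in every alternative that could be fitted, and 22 kept their direction. Over the members, 498 of 534 values kept their side of the threshold, 27 lost their call, 8 gained one and 1 reversed: IDI1, at 0.037 with the _s_at and _x_at types left out. With these left out, 6 sterol and 0 fatty acid genes fell, by limma with fewer genes tested, and the medians were 0.15 for fatty acid and −0.045 for efflux genes. ACLY, FASN, SCD and FADS2 have tested probe sets only of these types, so they were not tested in that setting. The same held for the sterol genes ACAT2, PMVK, TM7SF2, HSD17B7, SC5D and DHCR7, which left 22 members tested. Of these sterol genes, ACAT2 and TM7SF2 had fallen and DHCR7 had risen in the main fit. The sterol and fatty acid counts and medians there are of the remaining genes, so the smaller count of sterol falls is partly one of missing genes. No alternative changed the count of all probe sets called in a direction by over 1.5 times. With median centring 3 sterol genes and 1 fatty acid gene rose, and medians were −0.22 (sterol), −0.093 (fatty acid) and −0.29 (efflux). Quantile normalization gave medians of −0.078 (fatty acid) and −0.32 (efflux), and pseudocounts of 1 and 64 gave −0.27 and −0.12 for efflux genes. The efflux median rests on 4 genes of opposite sign, and ran from −0.27 to −0.17 when 1 sample was left out, and the fatty acid median from −0.037 to 0.017; sterol genes then fell in 7 or 8. PDSS1 reversed to 0.023 as the mean of its probe sets and to 0.31 without those suffixes, and DHDDS to 0.11 as a mean. Apart from genes that dropped out of a setting, the causes of these moves were not tested. Deviations of same-numbered samples from their group means correlated with r = 0.11, 0.027 and 0.11, so the numbers were not taken as pairs. With the replicate number as a block, 9 sterol genes fell, HMGCS1 not passing (adjusted p = 0.066), and 2 rises and 2 falls were found in each other class; each parental sample correlated best with the mutated sample of its own number, a hint from the data and not from the design. Dim probe sets limit TM7SF2, FADS2 and ABCA1, and MVD had no tested value.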

Other observations

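The mutated samples differed in how low the members stood. Mutated replicate 3 was the lowest of its group in 19 of the 32 genes, against 6 for replicate 1 and 7 for replicate 2, and in 7 of the 8 fatty acid genes. It was also the highest of its group in 8 of the 32 genes, against 15 for replicate 1 and 9 for replicate 2. For ACAT2, the 3 mutated values were 807, 798 and 724, and for LSS 593, 591 and 538. Mutated replicate 3 lay below all parental samples in 13 of 20 sterol genes, replicate 1 in 12 and replicate 2 in 11. The parental samples were more even, the lowest of the group being replicate 1 in 6, replicate 2 in 14 and replicate 3 in 12 of the 32 genes. The same counts were not made over all genes tested, so whether they are particular to the members was not tested.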
